A study of Caenorhabditis briggsae with 13 samples.

Results

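In embryos of the nematode Caenorhabditis briggsae, 231 of the 19528 genes on the array had their highest level at the 28-cell stage and were far lower both before, at 4 cells, and after, at 190 cells. They were chosen from measured values. The level L of a gene is the log2 of its spot intensity, less the 75th percentile of log2 intensity on that array, averaged over the gene's probes. A stage's level is the mean over its arrays. A gene was a member when L at 28 cells was the highest of the 5 stages, was at least 0, and lay at least 3 (8-fold, on the log2 scale) above both the 4-cell and the 190-cell level. The height of the 28-cell peak over the other stages is therefore a description of the choice and is given with no test.

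The series held 13 one-colour arrays, each of total RNA from 50 whole embryos of the wild strain AF16, amplified by in vitro transcription before labelling. No group carried a treatment or a genetic change. There were 2 arrays of 4-cell embryos (0 min), 3 of 28-cell embryos (55 min after the 4-cell stage), 3 of 55-cell embryos (80 min), 2 of 95-cell embryos (120 min) and 3 of 190-cell embryos (160 min). Per the labels, replicates were separate biological samples. Because whole embryos were pooled, fewer cells holding a transcript and less of it per cell cannot be told apart.

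In early animal embryos the first divisions run on RNA and protein that the mother laid down in the egg. The embryo's own genome is then switched on while part of the maternal RNA is degraded, a handover called the maternal-to-zygotic transition. In Caenorhabditis elegans, a related nematode, several early lineage regulators are transcribed in short pulses around the onset of gastrulation, among them the GATA-type endoderm factors end-1 and end-3. Genes are identified here by the array's WBGene numbers. Symbols for these numbers are not given in the files, and 0 of the 19528 numbers were found in the RefSeq gene table, so no role is given to any gene.

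Several arrays need a remark before the results. A tag naming the 4-cell stage was attached to 4 arrays titled otherwise, namely replicate B of 28 and of 190 cells and replicate A of 55 and of 95 cells. The titles were used. The scanner file under 28-cell C was a copy of that of 190-cell C, so detection flags exist for 12 arrays. On those, 3 arrays (55-cell C, 95-cell B and 190-cell C) were scanned on a second date. The share of probes well above background was 64.9% to 67.9% on these 3, and 39.7% to 56.5% on the 9 arrays of the first date. Before scaling, the 75th percentile intensity lay between 235 and 547.

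Among the 231 genes, the array medians of L stood apart by stage. They were -3.63 and -3.60 on the 4-cell arrays, between 1.87 and 2.04 on the 28-cell arrays, and 0.41, 0.16 and -0.36 on 55-cell A, B and C. The medians were -2.90 and -3.02 on the 95-cell arrays and -3.95, -3.86 and -4.28 on the 190-cell arrays. The median of all genes moved little by comparison, from -4.91 to -4.18 over the 13 arrays. Taken gene by gene, the median change of all genes was -0.81 from 4 to 28 cells and -1.16 from 4 to 190 cells. The array of 55-cell C lay closer to the later stages than its 2 replicates: in 195 of the 231 genes (84.4%) it was lower than both. Its difference from the mean of 55-cell A and B was -0.68 in the median over these genes and -0.30 over all genes. That array also had the second scan date, and the part of the date in this difference was not tested. The share of all genes lower on 55-cell C than on both replicates was not computed. The other arrays of that date were lower as well. For 190-cell C against the mean of A and B the median difference was -0.43 over these genes and -0.56 over all genes. For 95-cell B against 95-cell A it was -0.16 and -0.64.

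**Figure D1:**
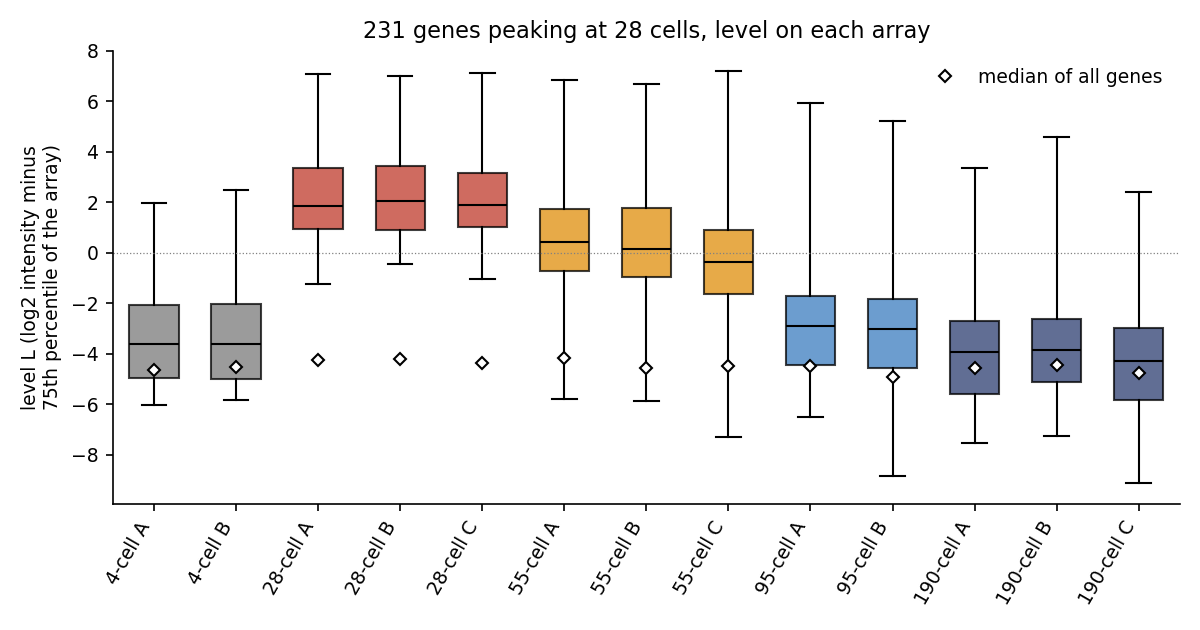
Level of the 231 genes on each of the 13 arrays, as log2 intensity minus the array's 75th percentile. Boxes span the quartiles with the median as a line, whiskers the lowest and highest gene, and diamonds mark the median of all 19528 genes; the 28-cell medians lie between 1.87 and 2.04 and the 190-cell medians between -4.28 and -3.86.

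The peak itself differed widely between the genes. Stage means at 28 cells ran from 0.0024 to 7.06 with a median of 1.87. The rise from the 4-cell level was 5.50 in the median (45.2-fold in fitted values) and reached 10.27. It was 4.77 in the median of the 135 genes with a probe well above background on both 4-cell arrays. The fall from 28 to 190 cells was 6.12 in the median and reached 12.05. In the 188 genes with a probe well above background on every flagged 28-cell and 190-cell array the median change was -5.45. Both of the largest values include spots not well above background at the dimmer stage. The median standard deviation between replicates of a stage was 0.35 at 28 cells, 0.45 at 55 cells and 0.49 at 190 cells over 3 arrays each. It was 0.24 at 4 cells and 0.28 at 95 cells over 2 arrays each.

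The edges of the selection were not gaps in the data. The 3 members with the lowest 28-cell level stood at 0.0024, 0.0077 and 0.031, and the 3 genes that missed it most narrowly stood at -0.0021, -0.026 and -0.039. The smallest rises from 4 cells inside the selection were 3.02, 3.06 and 3.12, against 2.98, 2.97 and 2.96 just outside. The smallest falls to 190 cells inside were 3.01, 3.06 and 3.06, and the largest outside were 2.99, 2.92 and 2.87. A further 13 genes met every other criterion but were highest at another stage, the closest by 0.036.

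The 28-cell level was also read on a 28-cell array left out of the selection. When each 28-cell array was left out in turn, the rule chose 231 genes without A, 228 without B and 226 without C. On the array left out, the median level of the genes so chosen was 1.84, 2.04 and 1.90. On that single array 194, 206 and 185 of them met every threshold, set against the same 4-cell and 190-cell means that had chosen them. The 28-cell side of each difference is thus left out, and the other side is not. Of the differences from the 4-cell mean, the lowest was -1.46, on 28-cell B.

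Separate probes of a gene were compared within the arrays. Of the 228 members with more than 1 probe, 209 had every probe highest at 28 cells, and in 178 every probe alone lay at least 3 above both ends. The rule used the mean of these same probes, so both counts partly follow from the choice and nothing is read from them. The probes of a member differed in 28-cell level by 1.26 in the median, so that levels of different genes were not ranked against each other beyond the description given here.

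The term zygotic, which would mean transcripts made only by the embryo, does not follow from these levels. A gene is called detected on an array when at least 1 of its probes was flagged well above background. Of the 231 genes, 135 (58.4%) were detected on both 4-cell arrays, 24 on 1 of them and 72 (31.2%) on neither. Among all genes, 47.3% were detected on both 4-cell arrays. The 135 genes had a median 4-cell level of -2.45, and 14 of them stood above the 75th percentile of the array already at 4 cells, up to 2.17. They rose by 4.77 in the median to 28 cells. The 72 undetected genes had a median 4-cell level of -5.53, which is a value at background, and reached a median of 1.05 at 28 cells. The dimmest spot flagged well above background had an L of -3.75 on 4-cell A and -3.54 on 4-cell B. On the other arrays with flags this limit lay between -6.92 and -4.26. The 4-cell arrays were thus the least sensitive, and a gene listed as undetected there may have had a level below these limits.

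Fewer of the genes were detected again at the later stages. All 231 genes were detected on both flagged 28-cell arrays. On every array of the stage, 228 were detected at 55 cells, 194 at 95 cells and 188 (81.4%) at 190 cells. Only 9 genes were detected on neither 95-cell array and 12 on no 190-cell array. Most of the genes were therefore still measurable at the end of the course, at a small share of their peak.

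Over these genes a median of 29.5% of the 28-cell intensity was left at 55 cells, with quartiles of 14.2% and 57.1%. At 95 cells the median was 3.18% and at 190 cells 1.44%. Intensities were scaled within each array, so these are shares of a relative level and not of molecules in an embryo. The median change was -1.76 over the 25 min from 28 to 55 cells, which corresponds to a halving every 14.2 min. It was -3.04 over the 40 min from 55 to 95 cells, a halving every 13.2 min. From 95 to 190 cells, again 40 min, it was -0.80, a halving every 49.7 min. Among genes detected on all flagged arrays of both stages, the halving times were 14.5 min (228 genes), 14.1 min (194 genes) and 48.8 min (181 genes).

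Genes left the peak at different times. Within the 25 min to 55 cells, 50 genes (21.6%) fell by at least 3 and another 109 (47.2%) by 1 to 3, while 72 (31.2%) stayed within 1 of their peak. By 95 cells another 152 genes had come to lie at least 3 below the peak, and the remaining 29 did so only at 190 cells, where the rule required it. The 50 early-falling genes went from a median of 2.58 at 28 cells to -1.49 at 55 cells and -5.19 at 95 cells. The 72 genes that held their level went from 1.93 to 1.27 at 55 cells and then to -1.49 at 95 cells. In 187 of the 231 genes every 28-cell array lay above every 55-cell array, against 16.7% of all genes. The rule used this contrast, so nothing is read from that count.

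**Figure D2:**
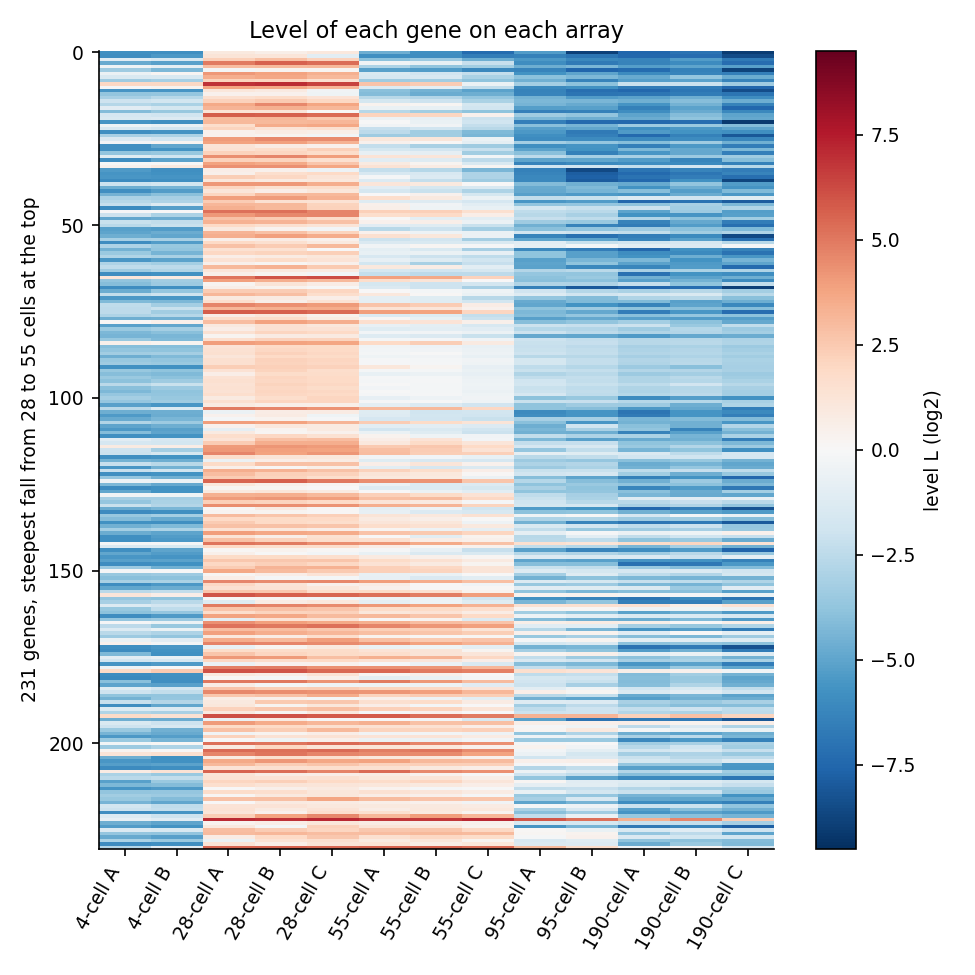
Level L of each of the 231 genes (rows) on each of the 13 arrays (columns), red above and blue below the array's 75th percentile. Rows are ordered by the change from 28 to 55 cells: at the top lie the 50 genes that fell by at least 3, at the bottom the 72 that stayed within 1 of their peak at 55 cells.

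WBGene00030782 was the brightest of the 231 genes. On 28-cell A, B and C its level was 7.08, 6.96 and 7.14, and on 55-cell A, B and C it was 6.83, 6.68 and 7.19. These ranges overlap, and the measured means differ by 0.16. A spot of the gene was saturated on both 28-cell arrays with flags, which makes the 28-cell level and its distance from 55 cells lower limits. No spot of it was saturated on another array with flags. It fell to 5.94 and 5.21 at 95 cells and to 3.37, 4.60 and 2.39 at 190 cells, where at most 8.22% of its peak was left.

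WBGene00040938, with the next highest peak, showed a sharper course. It started at 1.97 and 1.98 on the 4-cell arrays, where it was well above background, and reached 6.85, 6.997 and 6.43 at 28 cells. At 55 cells it was 2.69 and 2.38 on A and B but -0.64 on C, and at 95 cells -3.20 and -3.91. The 3 arrays of 55 cells all lay below those of 28 cells and above those of 95 cells. By 55 cells 2.57% of the peak intensity was left. The spread at 55 cells (SD 1.84, n = 3) came from 55-cell C, which stood apart from its replicates in the same direction as in most of the 231 genes.

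WBGene00030028 had the largest value of the smaller of its rise and fall, 10.27. It was at -4.78 and -5.18 on the 4-cell arrays, detected on 1 of them, and at 4.95, 5.60 and 5.33 at 28 cells. With 4-cell spots below the detection limit set to that limit, the rise was at least 474-fold. By 55 cells the gene had dropped to -0.31, -0.70 and -2.18, with 1.22% of the peak left, and by 95 cells to -5.93 and -6.70. The 28-cell arrays lay far from those of every other stage, with no overlap.

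WBGene00040794 lost least between 28 and 55 cells. Its levels of 5.50, 5.62 and 5.43 at 28 cells overlapped with 5.58, 5.61 and 5.30 at 55 cells. It then fell to 3.05 and 1.77 at 95 cells and to -0.47, 0.12 and -1.58 at 190 cells. With a difference of only 0.018 between the means of 28 and 55 cells, its peak could not be placed at one of these stages rather than the other.

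**Figure D3:**
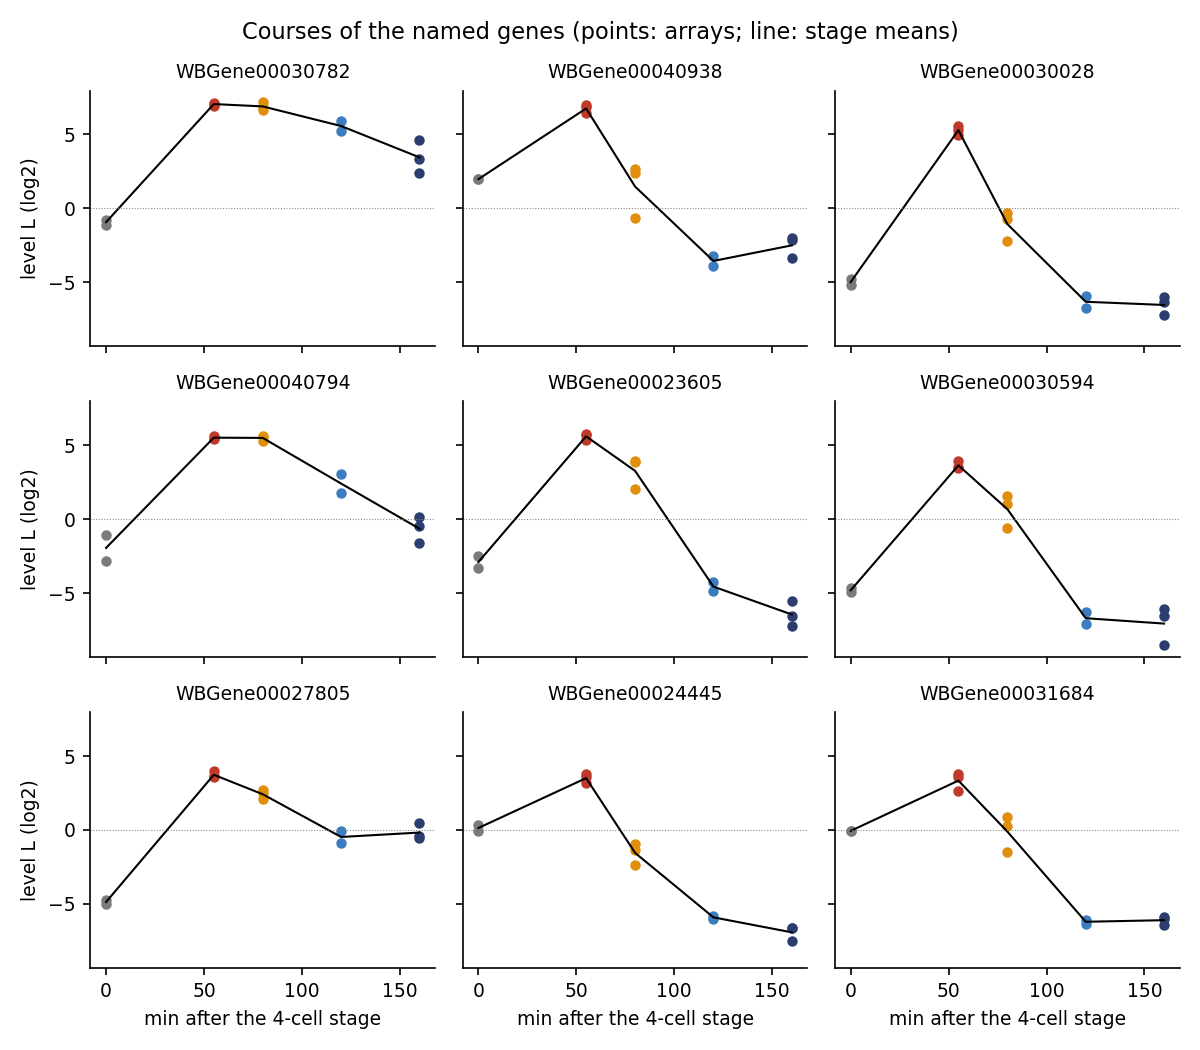
Courses of the 9 genes named in the text: level L on each array (points, coloured by stage) and stage means (line) against minutes after the 4-cell stage. WBGene00030782 and WBGene00040794 stay near their peak at 80 min, whereas WBGene00040938 and WBGene00030028 have lost most of it.

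The comparison of 95 with 55 cells asked where in the course the decline fell. The rule sets no order between these stages. It does require each gene to be low by 190 cells, so some decline after 28 cells was given, and the test bears on its placement in this interval. Every one of the 231 genes had a lower mean at 95 than at 55 cells. Of these, 206 (89.2%) were called lower and 0 higher (limma on all 13 arrays, Benjamini-Hochberg adjusted p under 0.05 over all genes). Among all 19528 genes 4.59% were called lower and 3.03% higher. Among the 12028 genes detected on every 55-cell array the shares were 7.36% and 3.68%. At an unadjusted p under 0.05 the number of members higher was also 0, as it was with limma-trend. This follows from every member having a lower mean at 95 cells, so it is no further evidence.

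The median change was -3.04 for the 231 genes and -0.15 for all genes. The called falls ran from -1.18 to -7.83, with a median of 9.73-fold when the 7 genes detected on neither 95-cell array were set to their lower bound. Among the 173 called genes detected on both 95-cell arrays the fitted falls were between 2.26-fold and 227-fold. Detection needs only 1 probe of a gene, so these falls can include spots below the detection limit. In 226 genes every 55-cell array lay above every 95-cell array, against 17.2% of all genes. In 226 of the 228 genes with several probes, every probe was lower at 95 cells. The share of all genes with several probes for which this holds was not computed. The 25 genes that were not called had changes between -0.19 and -2.16, and 4 of them had already fallen by at least 3 before 55 cells.

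The fall was also seen within each scan date. On the first date, 95-cell A differed from the mean of 55-cell A and B by a median of -3.35, lower in 230 of 231 genes, where all genes had a median change of 0.22. On the second date, 95-cell B differed from 55-cell C by a median of -2.60, lower in all 231 genes, where all genes had a median change of -0.42. The share of all genes that were lower was not computed for either date. Calls numbered 205 on the first date alone, 139 without the 4 arrays whose tags contradict their titles, and 134 when arrays were scaled on spike-in controls, without 28-cell C. The fits on the first date and without the 4 arrays leave a single 95-cell array, which is assumed to vary like the other stages. The share of all genes called was not computed for these settings.

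**Figure D4:**
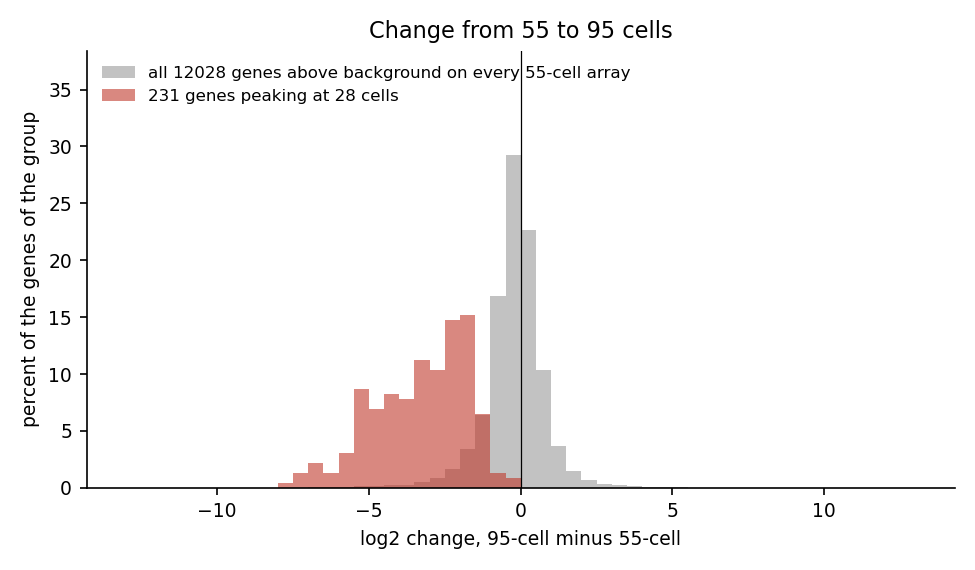
Log2 change from 55 to 95 cells of the 231 genes (red) and of the 12028 genes detected on every 55-cell array (grey), in bins of 0.5, as the percent of each group. The 231 genes lie wholly below 0 with a median of -3.04, whereas the other distribution is centred near 0.

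WBGene00023605 had the largest called fall in this interval. Its levels were 3.94, 3.85 and 2.02 on the 55-cell arrays and -4.25 and -4.86 on the 95-cell arrays, with no overlap. That is a fitted 227-fold fall (log2 change -7.83, SE 0.61, limma adjusted p = 1.8e-05). With 95-cell spots below the detection limit set to that limit, the fall was at least 196-fold. The gene had been at 5.76, 5.67 and 5.38 at 28 cells. In fitted values 19.8% of the peak was left at 55 cells and 0.0873% at 95 cells. WBGene00030594 followed with 1.56, 1.05 and -0.57 at 55 cells and -6.31 and -7.09 at 95 cells. Its fitted log2 change was -7.37 (SE 0.71, limma adjusted p = 7.2e-05). The gene was detected on only 1 of the 2 arrays at 95 cells, so the size of its fall is less certain than its direction. By the same limit the fall was at least 60.6-fold.

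The comparison of 190 with 4 cells asked whether the genes returned to the level from which they had risen. The rule set each of these stages against 28 cells and not against each other. The 231 genes did not share a direction. At 190 cells 92 genes (39.8%) were called lower than at 4 cells, 60 (26.0%) higher, and 79 were not called (limma, adjusted p under 0.05). Among all genes 42.3% were called lower and 14.8% higher, so the share of lower calls was near that of all genes. Of the 8254 lower calls among all genes, 3650 were of genes detected on neither 4-cell array, so their falls were not measured. The median change was -0.58, against -1.16 for all genes.

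This balance depended on how arrays were scaled. The share of all genes called was computed for the main fit alone, so the counts below stand without it. With arrays scaled on the probes detected on all of them, 102 genes were higher and 48 lower, and with spike-in controls, without 28-cell C, 65 were higher and 47 lower. In these scalings all genes together had a median change of 0.13 and -0.20. By contrast, quantile normalization gave 61 higher and 92 lower, a common floor 31 and 56, and normexp background correction without 28-cell C 24 and 111. Without 4-cell A, 39 genes were higher and 67 lower. Relative to the median change of all genes in the main scaling, 95 genes were higher and 52 lower. On the first scan date alone 73 were higher and 102 lower, and the second date held no array of 4 cells.

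The genes were also split by their detection at 4 cells. Of the 135 genes detected on both 4-cell arrays, 79 (58.5%) were called lower at 190 cells and 13 higher, with a median change of -1.77. Among all 9241 genes detected on both 4-cell arrays 47.5% were called lower and 15.6% higher. Fitted falls among the 62 such members that were also detected on every 190-cell array ran from 1.92-fold to 53.8-fold, with a median of 6.10-fold. Of the 72 genes detected on neither 4-cell array, 35 were called higher and 10 lower, with a median change of 0.85. Among all 9496 genes detected on neither 4-cell array 13.4% were called higher and 38.4% lower. Values at 4 cells are at background in these 72, and for 6 of the 10 lower calls the gene was detected at neither stage, so those 6 have no measured direction. For 23 of the 35 higher calls the fold had a lower bound above 1, and these 23 bounds ran from 1.10-fold to 6.57-fold with a median of 1.74-fold. This difference between the classes was not tested, since the 4-cell level that divides the classes is also part of the change. No probe of the 9496 genes was well above background at 4 cells, so their share of lower calls is not one of measured falls.

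**Figure D5:**
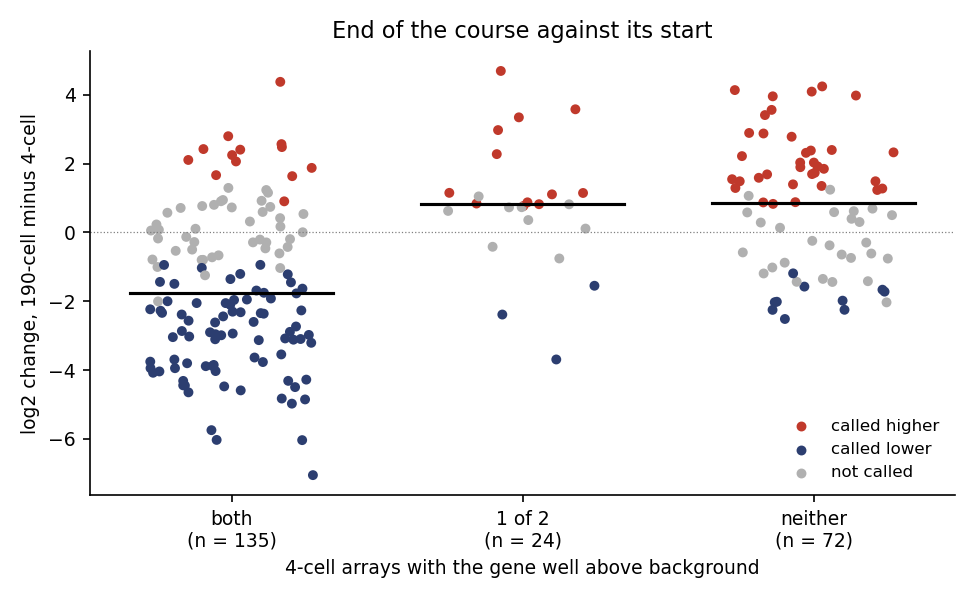
Log2 change from 4 to 190 cells for each of the 231 genes, split by the number of 4-cell arrays on which the gene was well above background, with class medians as lines. The median is -1.77 for the 135 genes detected on both arrays and 0.85 for the 72 detected on neither; red and blue points were called higher and lower.

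The largest fitted falls below the starting level were those of WBGene00024445 and WBGene00031684. The largest fitted fall of a member detected on every array of both stages was 53.8-fold. With that member's spots below the detection limit set to that limit, the fall was at least 41.4-fold. WBGene00024445 stood at -0.075 and 0.35 on the 4-cell arrays and at 3.77, 3.59 and 3.17 at 28 cells. It ended at -6.65, -6.60 and -7.51 at 190 cells (fitted log2 change from 4 cells -7.06, SE 0.44, limma adjusted p = 1.2e-07). It was detected on 1 of 3 arrays at 190 cells, and with spots below the detection limit set to that limit its fall was at least 50.8-fold. WBGene00031684 was at -0.060 on both 4-cell arrays, at 3.82, 3.59 and 2.62 at 28 cells and at -5.91, -5.99 and -6.40 at 190 cells (fitted log2 change -6.04, SE 0.58, limma adjusted p = 4.0e-06). It was detected there on 1 of 3 arrays, and its fall was at least 44.3-fold by the same limit. Both genes thus carried RNA at 4 cells, rose about 10-fold to their peak and were near background 105 min later.

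The opposite course was a peak that settled above its start. WBGene00027805 was at -4.72 and -5.02 on the 4-cell arrays, detected on 1 of them, and at 3.99, 3.66 and 3.56 at 28 cells. It was at -0.56, -0.40 and 0.44 at 190 cells (fitted log2 change from 4 cells 4.70, SE 0.38, limma adjusted p = 1.0e-06), with no overlap between these stages. With 4-cell spots below the detection limit set to that limit, the rise was at least 10.7-fold. WBGene00030782, whose 28-cell spots were saturated, ended 20.8-fold above its 4-cell level (log2 change 4.38, SE 0.52, limma adjusted p = 2.4e-05), and it was detected on all arrays of both stages. In stage means, 18 of the 231 genes were back at or below their 4-cell level by 55 cells, another 85 by 95 cells and 29 by 190 cells, while 99 stayed above it. For the 72 genes detected on neither 4-cell array that level is a value at background. The share of all genes was not computed for these counts.

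The number of probes per gene is a feature of the array on which the rule set no threshold. The rule did average over a gene's probes, so this number is not independent of the choice. With the A probe of each gene alone, the rule chose 302 genes, of which 208 were among the 231. According to the series' design text each gene received between 1 and 5 probes. Of the 231 genes 55 (23.8%) had 5 probes, against 795 of all 19528 genes (4.07%). The share was similar in early genes in general, where 143 of the 558 genes with a 28-cell level of at least 0 and a rise of at least 3 from 4 cells had 5 probes (25.6%). That group includes the 231. Among 189 genes that rose as early and were still within 1 of their 28-cell level at 190 cells the share was 30.2%, and among 24 genes that met the same rule with a peak at 55 cells it was 45.8%. Within the 231, 27 of the 72 genes that held their level to 55 cells had 5 probes, as did 16 of the 109 in the middle class and 12 of the 50 early-falling genes. These shares are descriptions and were not tested, and the sources used here do not say how genes were allotted 5 probes. The 189 genes that stayed on started from a median of -3.15 at 4 cells, against -3.69 for the 231, and 72.0% of them were detected on both 4-cell arrays against 58.4%.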

How the data were processed

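Per the submitters' processing notes the authors used Agilent Feature Extraction. They deposited the processed signal of each spot, an intensity with background and spatial trend subtracted, per the file headers. The deposited series table equals it on 12 arrays (relative tolerance 1e-06) and alone holds 28-cell C. Deposited flags (well above background, saturated, outlier) and median intensity columns came from those 12 files. The table held 0 columns of other series. Values were log2 intensity minus the 75th percentile over all 42034 gene probes, which are all rows of the table, averaged over a gene's probes with no filter on dim probes. All 231 members also passed a filter for probes well above background in a stage, through the 28-cell stage. The 19528 genes were fitted with limma 3.58.1 in R 4.3.3 (lmFit, eBayes, all 13 arrays, no block), and the fit was tested on simulated data. Bounds are given for part of the changes that involve undetected spots at the dimmer stage, and the other values are fitted ones. Each bound was computed against the array's dimmest spot well above background, or the probe itself if brighter. Replicate letters were not taken to pair the arrays, since not every pair of a letter deviated together: correlations of deviations ran from -0.21 to 0.52 within letter A, from -0.58 to 0.32 within B and from 0.47 to 0.63 within C, and 3 of 13 arrays were closest to an array of their own letter. Members, lists and tests were chosen with earlier results of these data known. Genes named are the first 1 or 2 by each part of a rule on peak height, change to 55 cells and called changes. Planned gene lists by symbol could not be applied, since no identifier matched a symbol. Normexp used median signals, since the files hold no mean signal. No sequence of a gene or probe was used here.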

Additional observations from a re-analysis of the deposited data

How the results depend on the processing

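The selection gave 231 genes and stayed within 1.5 times of that under 26 of 27 other settings, from 161 with a threshold of 4 to 326 with a threshold of 2 and 226 to 234 with 1 array left out. The exception was normexp background correction without 28-cell C, with 149 genes, of which 148 were among the 231. Scaling on gene probes alone is identical to the main scaling and was not a separate setting. For 95 against 55 cells no setting called a member higher, and the number lower was 172 to 209 with 1 array left out and 134 with spike-in scaling. For 190 against 4 cells the counts moved most: with scaling on detected probes 102 were higher and 48 lower, with spike-in scaling 47 were lower, with a common floor 31 were higher and 56 lower, and with normexp 24 were higher and 111 lower. Relative to the median change of all genes, a setting chosen after seeing the data, 95 were higher and 52 lower. With 1 array left out 39 to 64 were higher and 67 to 97 lower, the lowest pair without 4-cell A, which leaves a single 4-cell array. The replicate block gave 209 lower for 95 against 55 cells, and 67 higher and 91 lower for 190 against 4 cells, so it changed no count by over 1.5 times. A block for scan date, fitted without 28-cell C, made these numbers 217, 74 and 97. The cause of the differences between settings was not tested, and the share of all genes called was computed for the main fit alone. Levels near background and 2 arrays at 4 and at 95 cells limit what can be resolved.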
